A study of Rattus norvegicus with 8 samples.

Results

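Glutathione transferases, glutathione peroxidases, peroxiredoxins, thioredoxin and glutaredoxin proteins, superoxide dismutases, catalase and the quinone, haem and carbonyl enzymes that accompany them were followed through 3 stages of the rat male germ line. The set was chosen with earlier results of these data known. Its genes were matched by symbol alone, from rows whose names begin Gst (with a class letter and number), Mgst, Gpx, Prdx, Txn or Glrx or are Sod1 to Sod3, Srxn1, Cat, Nqo1, Nqo2, Hmox1, Hmox2, Cbr1, Cbr3 or Cbr4. They number 71 of the 16764 gene rows of the count table and fall into 12 families, and 63 of them had enough reads to be tested. All RNA came from Brown Norway rats, with 2 libraries per group. Undifferentiated spermatogonia (USg) were a germline stem cell line expanded in SG medium. Differentiating spermatogonia (DSg) were the same line after 7 days on laminin, the last 5 of them (120 h) in SD medium with all-trans-retinoic acid and neuregulin-1. Spc, enriched for spermatocytes, was not a line but primary testis germ cells left after removal of the cells that bound plastic, collagen-I or laminin, kept 2.5 days in a medium with 10% serum. The protocol places the USg harvest at day 0, before plating on laminin, although the titles of USg (T120plusG) and DSg (T120plusRAplusN) both carry T120. Medium, laminin and time therefore cannot be told apart between DSg and USg, nor stage, source and culture between Spc and the line. The labels speak of replicate cultures for the line and do not say how many animals or preparations lie behind the 2 Spc libraries, so that p-values measure the spread between these libraries, which may be technical.

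Glutathione is the main small thiol of the cell. Transferases join it to electrophiles and peroxidases spend it to reduce hydrogen peroxide and lipid peroxides, whereas the thioredoxin system (thioredoxins, their reductases and the peroxiredoxins they feed) does related work with protein thiols. Many of these genes are targets of the transcription factor NRF2, which binds antioxidant response elements, and the testis is known for germ cell forms of several of them, among them the thioredoxin-glutathione reductase Txnrd3 and the sperm thioredoxins Txndc2 and Txndc8.

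In DSg, 5 of the 63 tested genes passed the test against USg. Their promoters, the 120 bases before the RefSeq start site on the gene's own strand (5′ to 3′), are shown because the data bear on these genes first. They come from the RefSeq table of assembly GRCr8, whereas the processing notes of the counts name rn5 and rn6. Capitals mark matches to the core letters of the antioxidant response element, TGACNNNGC, read on either strand.
Gpx2: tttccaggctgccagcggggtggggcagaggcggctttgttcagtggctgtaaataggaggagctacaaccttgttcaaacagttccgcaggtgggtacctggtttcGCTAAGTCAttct
Gstp1: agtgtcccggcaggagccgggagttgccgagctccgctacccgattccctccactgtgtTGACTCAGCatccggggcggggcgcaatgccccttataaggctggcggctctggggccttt
Cbr3: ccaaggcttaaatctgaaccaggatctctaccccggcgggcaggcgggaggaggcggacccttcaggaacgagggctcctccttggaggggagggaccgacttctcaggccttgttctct
Gstt3: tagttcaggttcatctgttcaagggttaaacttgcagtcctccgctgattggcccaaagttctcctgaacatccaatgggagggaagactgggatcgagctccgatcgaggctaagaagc
Gstt4: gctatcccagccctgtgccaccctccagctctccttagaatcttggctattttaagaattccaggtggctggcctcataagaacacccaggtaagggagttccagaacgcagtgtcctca
In GRCr8 they lie at chr6:101230034-101230153 (minus strand), chr1:210769706-210769825 (minus strand), chr11:46478175-46478294 (plus strand), chr20:12874498-12874617 (plus strand) and chr20:12834493-12834612 (plus strand), in that order. The Gstp1 match begins 61 bases before the start and also holds the letters of the AP-1 site, TGACTCA. In Gpx2 the match is on the opposite strand, where it reads TGACTTAGC, and its leftmost base as printed lies at -13. No match lies in the printed windows of Cbr3, Gstt3 and Gstt4. Over the window of 300 bases that the table gives (250 before and 50 after the start), 18 of the 62 members with an entry held a match (29.0%), against 14.5% of the 11462 genes of the count table that have one. Mgst2, Sod3, Hmox1 and Prdx6 were among the 9 members with no entry. A match is a string of letters, and binding there was not measured.

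Total counts ran from 2657291 (DSg 1) to 5697165 (USg 2), and 1 count was worth between 0.178 and 0.404 CPM (counts scaled to a common library total, adjusted by TMM factors). The 71 genes took 0.340 to 0.581% of all counts. The libraries of the line were uneven: 7.81% of the USg 1 counts and 12.4% of the DSg 1 counts fell on ribosomal RNA genes, against at most 0.733% elsewhere, and of 1045 olfactory receptor genes 96.7% were detected in DSg 2 but 23.3% in DSg 1. As a description across tested genes, USg 1 correlated more closely with DSg 1 (r = 0.928 of log2 CPM) than with USg 2 (0.920), while the Spc pair stood at 0.982. Replicates differed by over 2-fold for 20 of the 63 tested members in USg, 15 in DSg and 2 in Spc, shares (31.7%, 23.8% and 3.17%) close to those over all tested genes (27.2%, 22.9% and 3.41%). The sums of the stage markers followed the labels, with exceptions among single genes. The 7 undifferentiated markers found, such as the GDNF receptor genes Gfra1 and Ret, summed to 1594 and 1816 CPM in USg, 293 and 296 in DSg and 202 and 182 in Spc, although Id4 was at 49 and 47.4 CPM in USg and 139.7 and 118 in Spc. The 4 differentiating markers found summed to 217 and 332, 889.7 and 915 and 219 and 232 CPM in the same order. Of these Kit gave 597 and 562 CPM in DSg, Dmrtb1 was highest in Spc (13 and 14.4) and Sohlh1 in USg 2 (147), and 1 of the 4 was called higher in DSg than in USg. The 8 spermatocyte markers summed to 6007 and 6803 in Spc, against 503 to 1034 in the line. Somatic marker sums were higher in Spc as well, apart from endothelium.

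**Figure D1:**
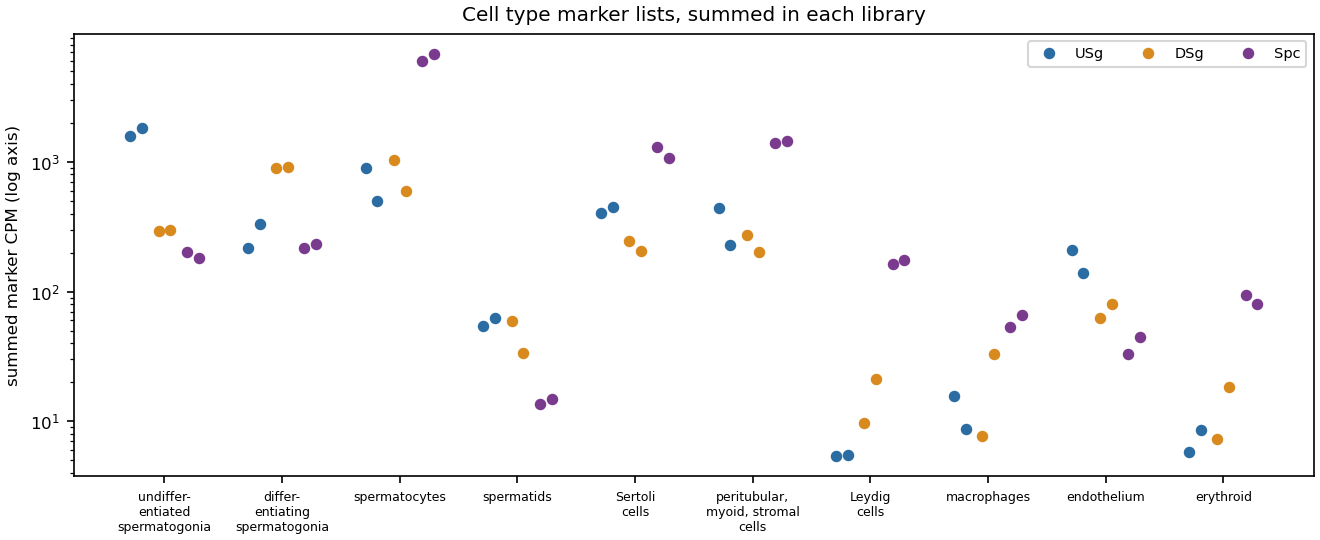
Summed CPM (log axis) of 10 marker lists, 1 point per library. Spermatocyte markers are highest in Spc (6007 and 6803 CPM), and so are the lists of Sertoli, peritubular and stromal, Leydig and macrophage cells and erythroid cells. In Spc the Sertoli, Leydig and erythroid sums are mostly Clu, Star and Hba1, in that order.

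The whole set showed few called changes within the line and many against Spc. Against USg, 1 member rose in DSg and 4 fell (edgeR quasi-likelihood test, Benjamini-Hochberg adjusted p below 0.05 over 12210 genes), where 0.565% and 1.92% of all tested genes did so (2.48% in either direction). Their median log2 fold change was -0.30, against 0.01 for all genes. With upper quartile or total-count scaling the median of all genes moved to 0.15 or 0.16 and that of the members to -0.15 or -0.17. Against USg, 23 members were higher in Spc and 8 lower (17.9% and 16.6% of all genes, 34.5% in either direction), with a median of 0.61 against -0.04. Against DSg, 25 were higher and 2 lower in Spc (14.8% and 11.7% of all genes, 26.5% in either direction), with a median of 0.85 against -0.03. In bulk RNA, fewer cells of a type and less RNA per cell cannot be told apart. The 3 comparisons share libraries, and 8 members too low to be tested are outside these counts. A missing call leaves wide limits: of the 58 members without one between DSg and USg, the 95% interval of the fold change lay within 2-fold for Txndc12 and Glrx3 and for no other.

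**Figure D2:**
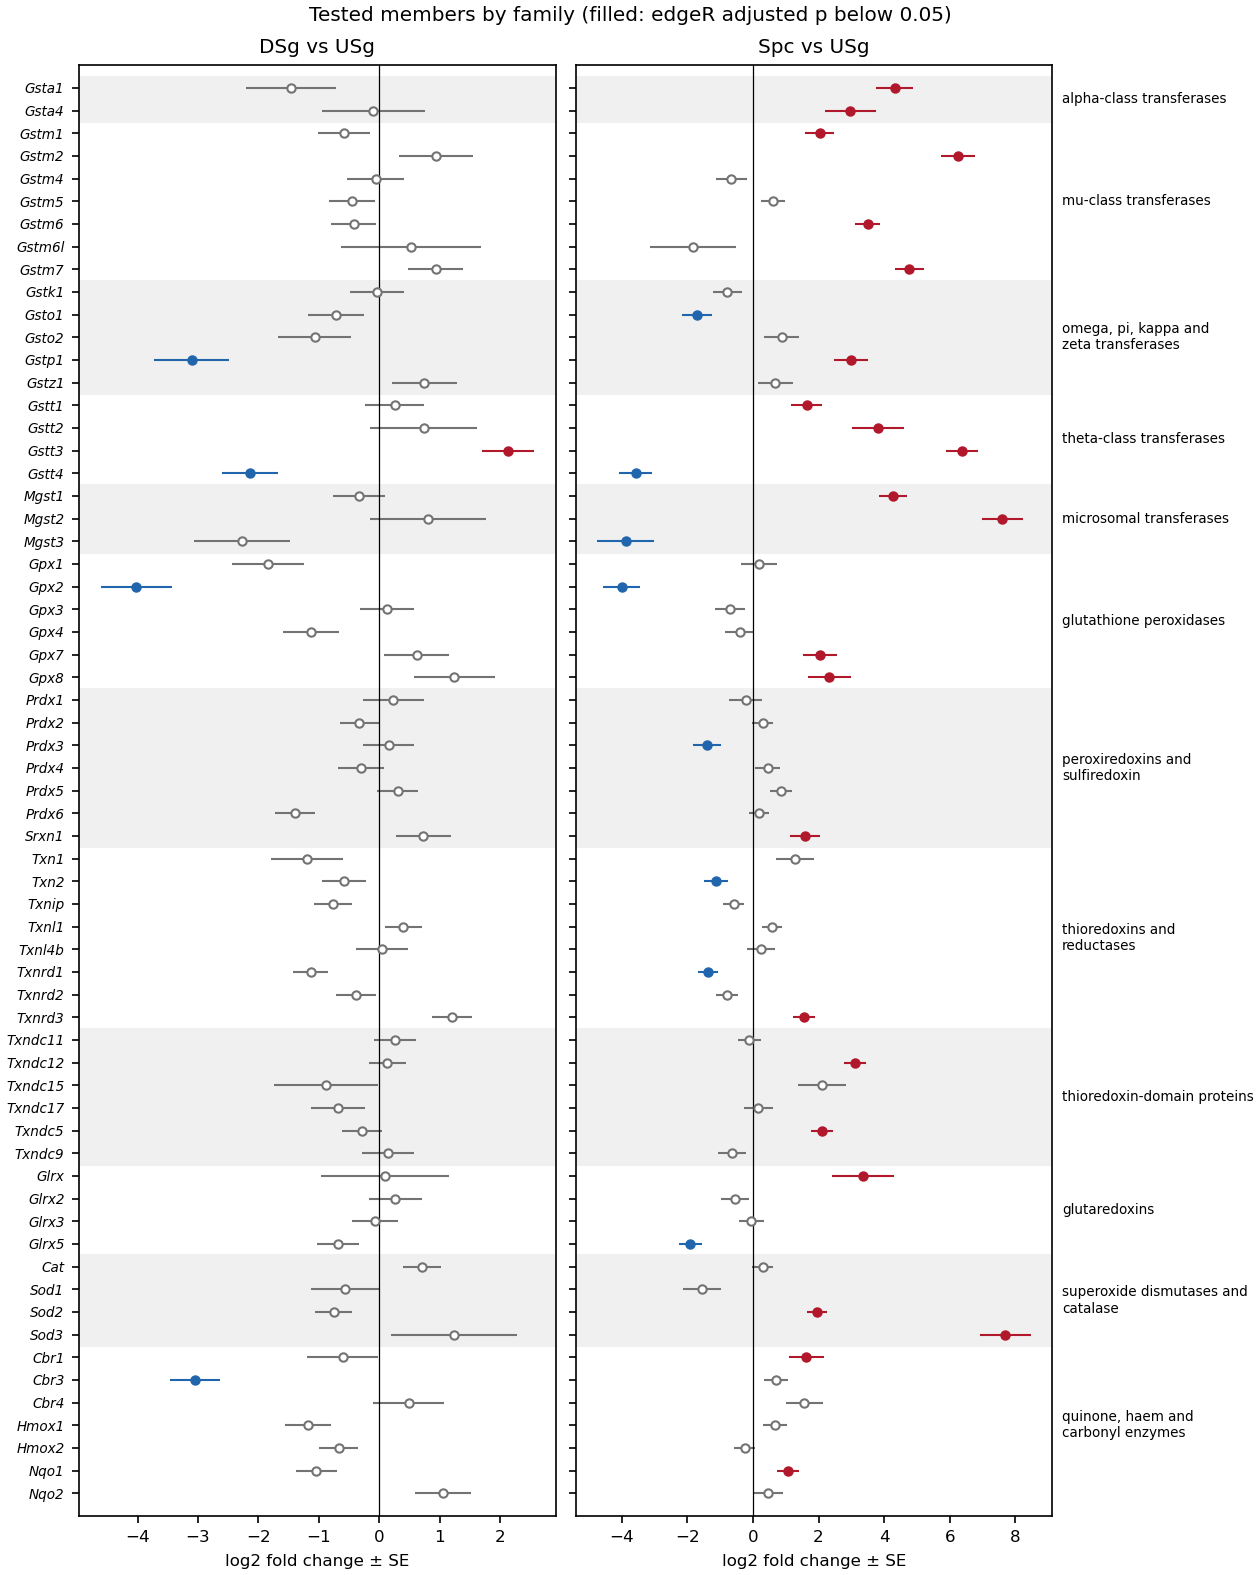
Log2 fold change ± SE of the 63 tested members, grouped by family, for DSg vs USg (left) and Spc vs USg (right), with filled points where the adjusted p was below 0.05 (red higher, blue lower). The called genes on the left are Gstp1, Gstt3, Gstt4, Gpx2 and Cbr3, and the right panel has 23 higher and 8 lower.

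In DSg the mRNAs of Gpx2, Gstp1, Cbr3 and Gstt4 fell and that of Gstt3 rose. Gpx2, a selenium-dependent peroxidase best known from the gut lining, stood at 30.1 and 85.3 CPM in USg, 3.64 and 3.5 in DSg and 4.14 and 3.05 in Spc. Both USg libraries lay above all 4 others, and the fall in DSg was -4.02 ± 0.59, adjusted p = 0.0149 (log2 fold change ± SE). Carbonyl reductase 3, Cbr3, which reduces ketones and quinones with NADPH, was at 37 and 58.9 CPM in USg, 5.66 and 5.92 in DSg and 91.4 and 66.4 in Spc. DSg was the low group here, with no overlap with USg (-3.05 ± 0.42, adjusted p = 0.0127) or with Spc (3.76 ± 0.42, adjusted p = 0.000584), and the values of USg and Spc were not called different (0.71 ± 0.36, adjusted p = 0.154). The pi-class transferase gene Gstp1 was lowest in DSg too, at 11.6 and 31 CPM in USg, 1.21 and 3.5 in DSg and 195 and 153 in Spc. It fell in DSg (-3.11 ± 0.62, adjusted p = 0.0408) and was higher in Spc than in USg (3.00 ± 0.52, adjusted p = 0.00279) and DSg (6.11 ± 0.65, adjusted p = 0.000459). The Gstp1 counts behind the DSg values were 3 and 13.

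**Figure D3:**
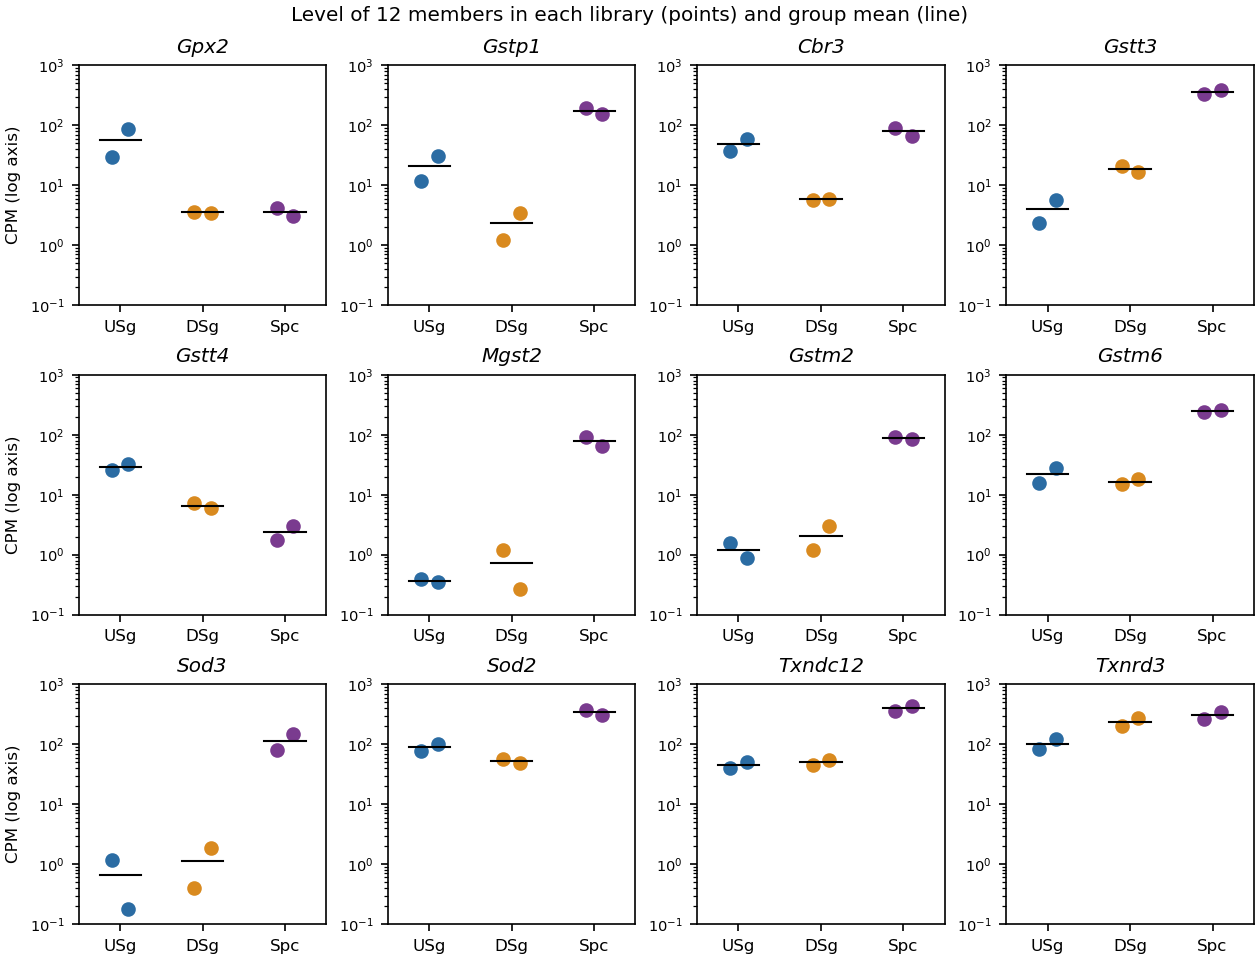
CPM (log axis) of 12 members in each library (points) with the group mean (line). DSg is the lowest group for Gstp1 and Cbr3, Gstt3 climbs from USg to DSg to Spc while Gstt4 descends, and Mgst2, Gstm2 and Sod3 are at or under 2.96 CPM in every library of the line.

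The theta-class transferases Gstt3 and Gstt4, which follow each other with Gstt1 between them on chromosome 20 of GRCr8, moved in opposite directions. Gstt3 stood at 2.32 and 5.7 CPM in USg, 21 and 16.7 in DSg and 331 and 386 in Spc, with no overlap between any groups. It rose in DSg (2.12 ± 0.43, adjusted p = 0.0443) and again in Spc (4.25 ± 0.42, adjusted p = 0.000365 against DSg). Gstt4 stood at 25.5 and 32.4 CPM in USg, 7.27 and 5.92 in DSg and 1.77 and 3.05 in Spc. It fell in DSg (-2.14 ± 0.46, adjusted p = 0.0497) and was lower in Spc than in USg (-3.58 ± 0.49, adjusted p = 0.000977), whereas the step from DSg to Spc was not called (-1.44 ± 0.50, adjusted p = 0.064). The ratio of Gstt3 to Gstt4 counts, which is not per length and is read only across libraries, went from 0.0909 and 0.176 in USg to 2.89 and 2.82 in DSg and 187 and 127 in Spc. No library of one group reached the next.

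These 5 calls rested on few libraries. The call of Gstt3 ended without USg 1 (log2 fold change 1.59), and those of Gstp1 and Gstt4 ended without USg 2 (Gstt4 then had -2.01). Without USg 1 calls became more numerous among the members and over all tested genes alike, most of them lower. All 5 calls ended without DSg 1 or DSg 2, as did every other call over all tested genes, the lone library left being assumed to vary like the other groups. The log2 fold changes of the 5 genes were then -3.22 and -3.08 for Cbr3, -4.25 and -3.99 for Gpx2, -2.83 and -4.13 for Gstp1, 1.75 and 2.29 for Gstt3 and -2.48 and -1.99 for Gstt4. Without USg 1 or USg 2 Gpx2 had -4.71 or -3.13 and Gstp1 -3.77 or -2.26, and without USg 2 Gstt3 had 2.95. With limma-voom Cbr3 alone passed (adjusted p of the others 0.0509 to 0.132), a fit of the 4 libraries ended the calls of Gstp1, Gstt3 and Gstt4 (0.111 to 0.171), total-count scaling those of Gstp1 and Gstt4 (0.0674 to 0.0866), and upper quartile scaling or a filter of 5 CPM that of Gstt4 (0.0666 and 0.052).

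Other members between USg and DSg missed the threshold with groups that did not overlap. With 2 libraries per group a lack of overlap, here and elsewhere, is weak evidence, and its share over all tested genes was not counted. Prdx6, the peroxiredoxin with a single active cysteine, stood at 102 and 90.1 CPM in USg, 43.2 and 29.9 in DSg and 106 and 113 in Spc (-1.40 ± 0.33, adjusted p = 0.0632 for DSg vs USg). Txnrd1, the cytosolic thioredoxin reductase, was at 468 and 646 CPM in USg, 255 and 252 in DSg and 210.1 and 222 in Spc (-1.14 ± 0.29, adjusted p = 0.085). Txnrd3 had the opposite sign, at 82.6 and 123 CPM in USg, 203 and 269.8 in DSg and 266 and 345 in Spc (1.20 ± 0.33, adjusted p = 0.103). All 3 passed with DESeq2, at adjusted p-values of 0.0115 for Prdx6, 0.0194 for Txnrd1 and 0.038 for Txnrd3. DESeq2 called 769 genes in all, against 303 by edgeR. None of the 3 passed with limma-voom or in the fit of the 4 libraries. Without USg 1 the log2 fold changes of Prdx6 and Txnrd1 were -1.43 and -1.48. The count ratio of Txnrd3 to Txnrd1 was 0.176 and 0.19 in USg, 0.797 and 1.07 in DSg and 1.27 and 1.55 in Spc, each group clear of the next. Of 7 pairs computed, Hmox1 over Hmox2 also separated the groups, while Mgst1 over Mgst3 (1.47 and 0.224 in USg, 3.5 and 0.895 in DSg), Sod2 over Sod1 (0.151 and 0.113, 0.0787 and 0.211) and Gstm2 over Gstm5 (0.0221 and 0.014, 0.0184 and 0.0924) overlapped between USg and DSg.

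**Figure D4:**
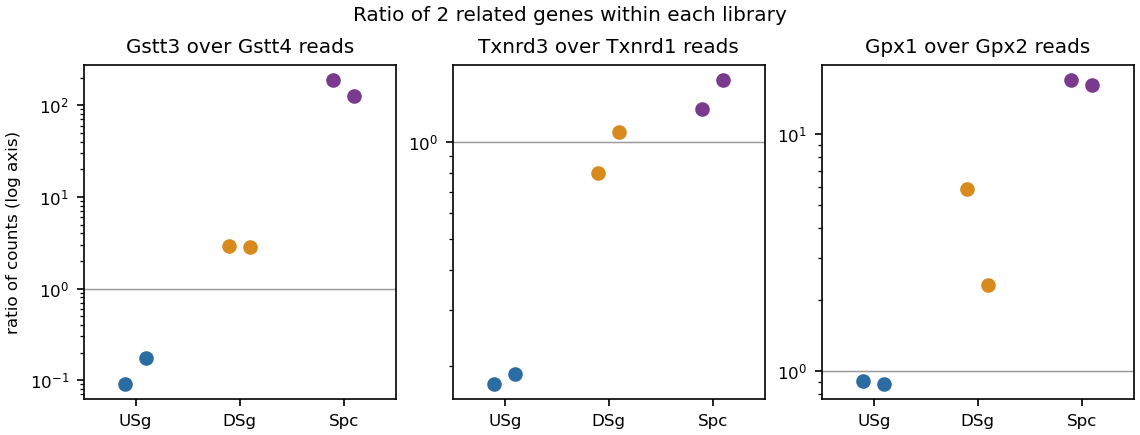
Ratio of read counts (log axis, line at 1) of 3 pairs of related genes in each library. Gstt3 over Gstt4 runs from 0.0909 in USg 1 to 187 in Spc 1, Txnrd3 over Txnrd1 from 0.176 to 1.55, and Gpx1 over Gpx2 from 0.885 to 16.8, with no overlap between groups. These pairs were chosen from 7 after their values were seen.

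Spc had more transferase mRNA than the line in the mu, alpha, theta and microsomal classes. Of 7 tested mu-class genes 4 were higher in Spc than in USg and 0 lower, where 17.9% and 16.6% of all tested genes were, and the same numbers held against DSg (14.8% and 11.7%). All 8 mu-class genes of the table lie together on chromosome 2 of GRCr8, and reads of such closely related copies, here as in the alpha and theta classes, can be split or lost in counting, so that single members are uncertain. Summed over the class, CPM were 137 and 204 in USg, 145 and 124 in DSg and 747 and 794 in Spc. Gstm2 was at 1.54 and 0.89 CPM in USg, 1.21 and 2.96 in DSg and 90.3 and 86.4 in Spc, higher in Spc by 6.25 ± 0.53, adjusted p = 0.000151 against USg. Gstm6 stood at 15.8 and 28.1 CPM in USg, 14.9 and 18 in DSg and 242 and 261 in Spc (3.49 ± 0.38, adjusted p = 0.000356). Gstm7 (4.76 ± 0.44, adjusted p = 0.000227) and Gstm1 (2.03 ± 0.44, adjusted p = 0.00744) were higher too, the latter at 29.3 and 76 CPM in USg, 35.6 and 35.3 in DSg and 211 and 224 in Spc. Gstm4 (-0.67 ± 0.47, adjusted p = 0.299) and Gstm5 (0.61 ± 0.38, adjusted p = 0.236) were not called.

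In the same Spc libraries the 8 Sertoli markers summed to 1314 and 1070 CPM (206 to 449 in the line), the 7 peritubular and stromal markers to 1387 and 1455 (201 to 441) and the 6 Leydig markers to 163 and 174 (5.40 to 21.3). Clu alone gave 1011 and 787 CPM of the Sertoli sums. Sox9 in Spc (50.3 and 45.1 CPM) lay between the USg values (82.2 and 30.6). The stromal proteoglycan gene Dcn was at 538 and 558 CPM and at most 5.12 in the line, the Sertoli factor gene Gata4 at 69.8 and 67.7 against at most 7.54, and haemoglobin Hba1 at 87.7 and 67.7 against at most 1.35. Hba1 gave most of the erythroid sum, whereas Slc4a1 was at 1.18 and 2.83 CPM in Spc and 5.02 to 14.5 in the line. Of 3 tested erythroid markers, 2 were called higher in Spc than in USg and 0 lower. Against DSg, 1 was called higher and 1 lower. Against USg, 4 of 6 tested Sertoli markers, 6 of 7 peritubular and stromal markers, 3 of 4 macrophage markers and 1 of 3 Leydig markers were called higher in Spc and 0 of them lower. Of 5 endothelial markers 1 was higher and 3 lower, where 17.9% and 16.6% of all tested genes were. Against DSg, 5 Sertoli, 6 peritubular and stromal, 1 macrophage and 1 Leydig marker were called higher. In that comparison 1 Leydig and 2 endothelial markers were lower (14.8% and 11.7% of all tested genes higher and lower). Of the Leydig list Star accounted for 159 and 169 CPM, whereas Insl3 had 1 and 0 counts and Cyp17a1 was at 1.18 and 0.218 CPM. Cyp11a1 went the other way, at 0.788 and 1.09 CPM in Spc and 1.93 to 6.06 in the line. Spermatid markers were low, with Prm2 at 0 counts in both Spc libraries and the list at 13.6 and 14.8 CPM, against 33.7 to 62.9 in the line. Most of each sum was Spaca1, at 9.85 and 10.9 CPM in Spc and 21.5 to 55 in the line. Only 2 of the 8 spermatid markers were tested, and both were called lower in Spc than in USg. Odf1 went the other way, at 8 and 6 counts in Spc and 0 and 2 in USg. The part of somatic RNA in the differences between Spc and the line was not tested.

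Alpha-class transferases summed to at most 7.54 CPM in the libraries of the line. Gsta1 was at 4.24 and 1.6 CPM in USg, 0.404 and 1.35 in DSg and 58.9 and 49.4 in Spc (4.32 ± 0.56, adjusted p = 0.000764 for Spc vs USg). Gsta4, which acts on lipid peroxidation products, was at 0.386 and 3.74 CPM in USg, 1.21 and 2.96 in DSg and 20.3 and 16.8 in Spc (2.97 ± 0.77, adjusted p = 0.0177). Both Spc libraries lay above every library of the line for each gene. Of the theta class, Gstt1 (1.64 ± 0.47, adjusted p = 0.0257) and Gstt2 (3.83 ± 0.79, adjusted p = 0.00637, on 8 counts in the USg pair) were higher in Spc than in USg. So was Gstt3 (6.38 ± 0.48, adjusted p = 0.000111), which left Gstt4 as the 1 theta gene that was lower. Gstt1 lost its call without USg 1, Spc 1 or Spc 2 (log2 fold change 1.50 to 1.70, adjusted p = 0.0514 to 0.141), and without USg 2 Gsta4 had 5.48. Against DSg, the call of Gsta4 (3.07 ± 0.80, adjusted p = 0.0224) ended without DSg 1 or DSg 2 (log2 fold change 2.81 to 3.90, adjusted p = 0.0644 to 0.0858). That of Gstt2 (3.10 ± 0.75, adjusted p = 0.0172) ended without Spc 1 or Spc 2 (log2 fold change 3.17 to 3.28, adjusted p = 0.0596 to 0.0811), and its value was 5.06 without DSg 2.

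The microsomal transferases, membrane proteins of a separate family, split by gene. Mgst2, which can also make leukotriene C4, was at 0.386 and 0.356 CPM in USg, 1.21 and 0.269 in DSg and 90.1 and 64.2 in Spc, from 3 counts in the USg pair, 4 in the DSg pair and 752 in the Spc pair. Scaled for depth the ratio of Spc to USg was 213 (exact 95% interval 72.5 to 1034) and that of Spc to DSg 120.4 (exact 95% interval 46.8 to 443), intervals that cover counting error only (edgeR adjusted p = 0.00015 and 0.000255). No library of the line had more than 3 counts of it. Mgst1 stood at 9.65 and 6.77 CPM in USg, 8.48 and 4.58 in DSg and 149 and 162 in Spc (4.27 ± 0.42, adjusted p = 0.000262 for Spc vs USg). Mgst3 went the other way, at 6.56 and 30.3 CPM in USg, 2.42 and 5.12 in DSg and 0.788 and 1.74 in Spc (-3.87 ± 0.87, adjusted p = 0.00919), with USg 2 far above USg 1. The call ended without USg 2 (log2 fold change -2.34, adjusted p = 0.146). Its DSg value was not called against USg (-2.27 ± 0.80, adjusted p = 0.177) but passed with low rows kept (-2.50, adjusted p = 0.0026). Without USg 1, Spc 1 or Spc 2 the log2 fold change was -2.35 to -3.10.

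In the mixed group of omega, pi, kappa and zeta transferases, Gsto1, which reduces dehydroascorbate, was at 205 and 90.5 CPM in USg, 118 and 60.9 in DSg and 46.9 and 43.5 in Spc. It was lower in Spc than in USg (-1.70 ± 0.47, adjusted p = 0.0223), a call that ended without USg 1, Spc 1 or Spc 2 (log2 fold change -1.04 to -1.76, adjusted p = 0.0647 to 0.102). Gsto2, the next gene on chromosome 1, was higher in Spc than in DSg (1.94 ± 0.59, adjusted p = 0.0409). That call ended with upper quartile scaling, total-count scaling or limma-voom and without DSg 1, DSg 2, Spc 1 or Spc 2 (log2 fold change 1.73 to 2.32, adjusted p = 0.0561 to 0.29). Gstk1 and Gstz1 were called in no comparison.

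**Figure D5:**
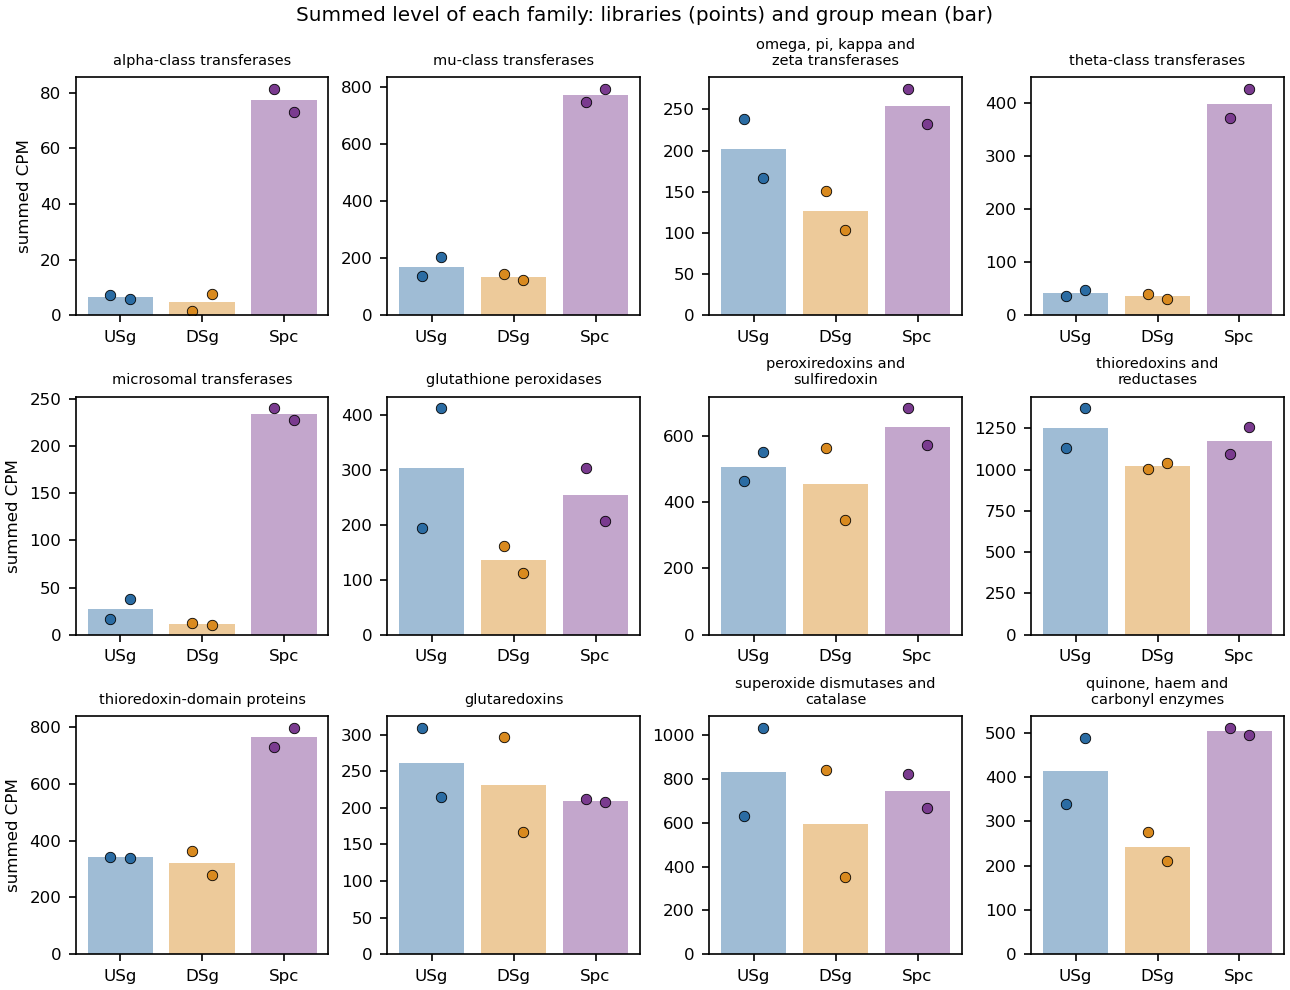
Summed CPM of each of the 12 families in each library (points) with the group mean (bar, from 0). Mu-class sums are 747 and 794 CPM in Spc against 124 to 204 in the line, while glutaredoxin sums overlap between the groups.

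Glutathione peroxidases changed gene by gene. Gpx7 and Gpx8, which work in the endoplasmic reticulum, were higher in Spc than in USg. Gpx7 was at 4.24 and 7.48 CPM in USg, 5.25 and 12.9 in DSg and 24.6 and 25.5 in Spc (2.05 ± 0.53, adjusted p = 0.0168). Gpx8 was at 8.87 and 3.92 CPM in USg, 23.4 and 6.19 in DSg and 31.9 and 29.6 in Spc (2.32 ± 0.65, adjusted p = 0.024). Both Spc libraries lay above all 4 of the line for each gene, and the call of Gpx8 ended without USg 2 (log2 fold change 1.81, adjusted p = 0.0689). Gpx2 was low in Spc too (-4.00 ± 0.57, adjusted p = 0.00115 against USg; 0.02 ± 0.62 for Spc vs DSg, 95% interval -1.39 to 1.42). Gpx1, the general cytosolic form, stood at 27.4 and 75.5 CPM in USg, 21.4 and 8.08 in DSg and 69.6 and 49 in Spc. Its USg libraries lay on either side of the Spc values, and it was called only as higher in Spc than in DSg (2.03 ± 0.60, adjusted p = 0.0351), which ended without DSg 2 (log2 fold change 1.46, adjusted p = 0.19). It had 3.05 without DSg 1. Between DSg and USg it had -1.84 ± 0.59, adjusted p = 0.15, and it passed with low rows kept (-1.98, adjusted p = 0.0025) or DESeq2 (-1.84, adjusted p = 0.0338). Its log2 fold change was -2.50 without USg 1, -1.89 without Spc 1 and -1.86 without Spc 2. Gpx4, which reduces lipid peroxides in membranes and is a structural protein of sperm, was at 111 and 225 CPM in USg, 93.3 and 60.9 in DSg and 167 and 88 in Spc. USg and Spc overlapped, and it was called in no comparison (-0.40 ± 0.45, adjusted p = 0.516 for Spc vs USg). For DSg vs USg it had -1.13 ± 0.46, and -1.67 without USg 1.

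Of the 7 peroxiredoxin rows (Srxn1 included) 1 was higher and 1 lower in Spc than in USg (17.9% and 16.6% of all tested genes), and likewise against DSg (14.8% and 11.7%). Srxn1, the sulfiredoxin that restores overoxidised peroxiredoxins, was at 12.7 and 30.4 CPM in USg, 41.6 and 31.2 in DSg and 77.1 and 55.3 in Spc (1.59 ± 0.45, adjusted p = 0.0252 for Spc vs USg). Its call ended without USg 1, DSg 1 or Spc 1 (log2 fold change 1.08 to 1.57, adjusted p = 0.0518 to 0.149), and its value was 2.39 without USg 2. The mitochondrial Prdx3 stood at 65.2 and 54.8 CPM in USg, 93.3 and 40.4 in DSg and 23.3 and 22.4 in Spc, with Spc below all 4 libraries of the line. It was lower in Spc than in USg (-1.39 ± 0.43, adjusted p = 0.034), which ended without USg 1, Spc 1 or Spc 2 (log2 fold change -1.31 to -1.43, adjusted p = 0.0601 to 0.19). It was also lower than in DSg (-1.54 ± 0.43, adjusted p = 0.0288), which ended without DSg 1, Spc 1 or Spc 2 (log2 fold change -0.64 to -1.53, adjusted p = 0.164 to 0.236). Prdx6 was higher in Spc than in DSg (1.58 ± 0.33, adjusted p = 0.00845), a call that ended without DSg 2, Spc 1 or Spc 2 (log2 fold change 1.33 to 1.69, adjusted p = 0.0534 to 0.0746). Prdx4, the form of the endoplasmic reticulum, was at 76.4 and 151 CPM in USg, 104 and 81.9 in DSg and 169 and 142 in Spc and, like Prdx1, Prdx2 and Prdx5, was called in no comparison.

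In the thioredoxin system the reductases Txnrd1 and Txnrd3 had opposite calls in Spc. Txnrd3 was higher in Spc than in USg (1.57 ± 0.34, adjusted p = 0.00746), which ended without Spc 2 (log2 fold change 1.38, adjusted p = 0.0992). Txnrd1 was lower (-1.37 ± 0.30, adjusted p = 0.00778), which ended without Spc 1 or Spc 2 (log2 fold change -1.34 to -1.40, adjusted p = 0.13 to 0.15). Between Spc and DSg neither was called, at 0.37 ± 0.33 for Txnrd3 (95% interval -0.38 to 1.11) and -0.23 ± 0.29 for Txnrd1 (-0.89 to 0.43). Txn1, the cytosolic thioredoxin, was at 13.1 and 61.1 CPM in USg, 16.2 and 16.7 in DSg and 97.6 and 85.8 in Spc, with USg 1 and USg 2 far apart. It was higher in Spc than in DSg (2.48 ± 0.61, adjusted p = 0.0186), a call that ended without DSg 1 or DSg 2 (log2 fold change 2.50 to 2.63, adjusted p = 0.0937 to 0.117). For DSg vs USg it had -1.20 ± 0.60, adjusted p = 0.313, and -2.03 without USg 1. Spc vs USg was not called (1.28 ± 0.58, adjusted p = 0.117) and had 2.82 without USg 2. It passed with low rows kept (1.24, adjusted p = 0.0294) or a replicate block (1.50, adjusted p = 0.0322). The mitochondrial Txn2 was at 44.8 and 43.6 CPM in USg, 36 and 23.2 in DSg and 23.5 and 17.2 in Spc. It was lower in Spc than in USg (-1.12 ± 0.37, adjusted p = 0.044), which ended with low rows kept or DESeq2 and without USg 1, USg 2, Spc 1 or Spc 2 (log2 fold change -0.90 to -1.37, adjusted p = 0.0542 to 0.428). Txnip, which binds and inhibits thioredoxin, was called in no comparison, at 198 and 248 CPM in USg, 108 and 154 in DSg and 139 and 157 in Spc.

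Of the thioredoxin-domain proteins, Txndc12 and Txndc5, both of the endoplasmic reticulum, were higher in Spc. Txndc12 was at 40.1 and 51.5 CPM in USg, 45.7 and 54.9 in DSg and 352 and 439 in Spc (3.10 ± 0.33, adjusted p = 0.000316 against USg), with both Spc libraries far above all 4 of the line. Txndc5 stood at 27 and 30.8 CPM in USg, 27.5 and 19.9 in DSg and 119 and 128 in Spc (2.10 ± 0.33, adjusted p = 0.0018). Txndc15 was called higher in Spc than in DSg (3.00 ± 0.80, adjusted p = 0.0247) on 8 counts in the DSg pair. The call ended with total-count scaling or limma-voom and without DSg 1, DSg 2 or Spc 1 (log2 fold change 2.36 to 3.61, adjusted p = 0.0523 to 0.412). The sperm thioredoxins had few reads in Spc, 3 and 5 counts for Txndc2 and 2 and 0 for Txndc8.

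Glutaredoxins use glutathione to reduce protein disulfides. Glrx5, which serves iron-sulfur cluster assembly in mitochondria, was at 74.5 and 66.4 CPM in USg, 53.7 and 33.9 in DSg and 18.7 and 18.7 in Spc, in groups that did not overlap. It was lower in Spc than in USg (-1.91 ± 0.36, adjusted p = 0.00398) and than in DSg (-1.22 ± 0.35, adjusted p = 0.0336). The call against DSg ended with low rows kept and without DSg 1, Spc 1 or Spc 2 (log2 fold change -0.68 to -1.17, adjusted p = 0.0785 to 0.335). The cytosolic Glrx stood at 3.09 and 0.178 CPM in USg, 1.21 and 1.62 in DSg and 13.4 and 14.8 in Spc, with Spc above every library of the line. Its call against USg (3.36 ± 0.95, adjusted p = 0.0246) ended without Spc 2 (log2 fold change 3.21, adjusted p = 0.0691), with values of 6.06 without USg 1 and 2.19 without USg 2. The call against DSg (3.27 ± 0.94, adjusted p = 0.0331) ended with upper quartile scaling or total-count scaling and without DSg 1, DSg 2 or Spc 2 (log2 fold change 3.04 to 3.50, adjusted p = 0.0502 to 0.117). Glrx3, which handles iron in the cytosol, was called in no comparison, at 205 and 130 CPM in USg, 207 and 113 in DSg and 166 and 158 in Spc (95% intervals of the log2 fold change -0.92 to 0.79 for DSg vs USg and -0.90 to 0.81 for Spc vs USg).

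Of the superoxide dismutases, the extracellular Sod3 and the mitochondrial Sod2 were higher in Spc. Sod3 stood at 1.16 and 0.178 CPM in USg, 0.404 and 1.88 in DSg and 79.2 and 147 in Spc. These values came from 4 counts in the USg pair, 8 in the DSg pair and 1075 in the Spc pair. The ratio of Spc to USg was 228 (exact 95% interval 88.9 to 839) and that of Spc to DSg 86 (exact 95% interval 43.5 to 199.8), intervals that again cover counting error only, with adjusted p-values of 0.000276 and 0.000549 by edgeR. Sod2 was at 77.2 and 101 CPM in USg, 56.2 and 49.5 in DSg and 377 and 310 in Spc (1.94 ± 0.31, adjusted p = 0.00188 against USg and 2.70 ± 0.32, adjusted p = 0.00074 against DSg). No library of the line came near the Spc values of either gene. The cytosolic Sod1 was at 510.5 and 894 CPM in USg, 714 and 235 in DSg and 323 and 153 in Spc. Both Spc libraries lay below both of USg, the DSg pair spanned the gap, and no comparison was called (-1.56 ± 0.57, adjusted p = 0.0624 for Spc vs USg). Among the alternatives without a replicate block, Spc vs USg passed with upper quartile scaling, total-count scaling, low rows kept, DESeq2, limma-voom or a fit of the 4 libraries and without USg 1, DSg 1, DSg 2 or Spc 1 (log2 fold change -1.55 to -2.21, adjusted p = 0.0027 to 0.0466). Catalase (Cat), the peroxisomal enzyme that splits hydrogen peroxide, was at 44 and 38.8 CPM in USg, 69.1 and 65.7 in DSg and 43.4 and 57.9 in Spc, highest in both DSg libraries without a call (0.70 ± 0.32, adjusted p = 0.277 for DSg vs USg).

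Of the quinone, haem and carbonyl enzymes, Nqo1 and Hmox1, like Cbr3, had their lowest values in DSg. Nqo1, a quinone reductase, was at 28.2 and 38.6 CPM in USg, 17 and 15.6 in DSg and 66.6 and 74.9 in Spc. The 3 groups did not overlap. Spc was called above DSg (2.12 ± 0.35, adjusted p = 0.00318) and above USg (1.08 ± 0.33, adjusted p = 0.0339). The second call ended with low rows kept and without USg 1, DSg 1, Spc 1 or Spc 2 (log2 fold change 0.83 to 1.14, adjusted p = 0.0529 to 0.315). DSg vs USg was not called (-1.04 ± 0.34, adjusted p = 0.155), and its log2 fold change was -1.38 without USg 1. Haem oxygenase Hmox1, which breaks down haem, was at 47.5 and 71.4 CPM in USg, 30.7 and 22.1 in DSg and 114 and 77.5 in Spc, again with no overlap. It was called in Spc vs DSg (1.86 ± 0.38, adjusted p = 0.0085), ending without DSg 2 or Spc 1 (log2 fold change 1.62 to 1.63, adjusted p = 0.0671 to 0.078). DSg vs USg had -1.18 ± 0.38, adjusted p = 0.149 for Hmox1, and a log2 fold change of -1.56 without USg 1. Cbr1, a carbonyl reductase of broad substrate range, was at 6.56 and 4.45 CPM in USg, 4.85 and 2.42 in DSg and 14.4 and 18.9 in Spc, highest in both Spc libraries. Its call against USg (1.62 ± 0.53, adjusted p = 0.044) ended with upper quartile scaling, total-count scaling or DESeq2 and without USg 2, Spc 1 or Spc 2 (log2 fold change 1.35 to 1.79, adjusted p = 0.0568 to 0.337). That against DSg (2.22 ± 0.56, adjusted p = 0.0200) ended without DSg 2 or Spc 2 (log2 fold change 1.77 to 2.05, adjusted p = 0.0862 to 0.151). Hmox2, Nqo2 and Cbr4 were called in no comparison, Hmox2 at 197 and 301 CPM in USg, 173 and 139.8 in DSg and 194 and 226 in Spc.

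The 8 members with too few reads to be tested were Gsta2, Gsta3, Gsta5, Gstm3, Gpx5, Gpx6, Txndc2 and Txndc8, with 13 to 28 counts each over all 6 libraries. Their counts summed to 65 in DSg 2 and 3 in DSg 1, and DSg 2 held the most counts of 5 of them, among them the epididymal peroxidase gene Gpx5 with 13. The same library detected 96.7% of the olfactory receptor genes, and the few counts of these 8 members in it were not read as expression. Tested members with few DSg counts carry the same limit. Without DSg 2 the log2 fold change of Sod3 for Spc vs DSg was 8.01, against 6.46 with all libraries.

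Of the partner genes of these enzymes, 3 were called in DSg against USg by edgeR, all lower, and 4 by DESeq2 or limma-voom. Of 19 tested genes of glutathione synthesis and recycling 0 rose and 2 fell by edgeR, where 0.565% and 1.92% of all tested genes did so. Gsr, which encodes glutathione reductase, was at 168 and 168 CPM in USg, 60.2 and 62.2 in DSg and 41.2 and 37.7 in Spc (-1.46 ± 0.29, adjusted p = 0.0424). The aminopeptidase gene Anpep was at 133 and 124 CPM in USg, 33.9 and 46.9 in DSg and 21.5 and 21.1 in Spc (-1.67 ± 0.32, adjusted p = 0.0383). In both genes the USg pair lay above all other libraries. Both calls ended with upper quartile or total-count scaling, in a fit of the 4 libraries and without DSg 1 or DSg 2, and that of Gsr also without Spc 1 or Spc 2. In Spc against USg, the cystine transporter gene Slc7a11 was among those higher (3.48 ± 0.57, adjusted p = 0.00219), and 6 of the 19 were lower (Gss, Gsr, Ggt5, Ggt7, Anpep and Idh1; 16.6% of all tested genes). Of 16 genes of selenoprotein synthesis and other selenoproteins 0 rose and 1 fell in DSg by edgeR. That was the selenoprotein M gene (listed as Selm), at 46.3 and 96.2 CPM in USg, 6.06 and 9.42 in DSg and 37.6 and 29.4 in Spc (-3.18 ± 0.48, adjusted p = 0.0161), a call that ended without DSg 1 or DSg 2. Sephs2, which makes the selenium donor, was at 22 and 11.6 CPM in USg, 56.6 and 50.9 in DSg and 139.5 and 144 in Spc. The DSg vs USg difference was not called by edgeR (1.70 ± 0.38, adjusted p = 0.0557) but was by DESeq2 (adjusted p = 0.00512) and limma-voom (0.0446). In the same list 5 were higher and 0 lower in Spc than in USg (Sephs2, Scly, Sepp1, Vimp and Selt), where 17.9% and 16.6% of all tested genes were. Of 9 tested NRF2 regulators 0 were called between DSg and USg by edgeR, DESeq2 or limma-voom (1 at an unadjusted p below 0.05 by edgeR). Maff, a small partner of NRF2 on DNA, was at 45.5 and 126 CPM in USg, 42.8 and 28.5 in DSg and 26.6 and 15.5 in Spc, lower in Spc than in USg (-2.04 ± 0.53, adjusted p = 0.0176). It was called lower in DSg with low rows kept (-1.44, adjusted p = 0.0372), and had -1.95 without USg 1. Nfe2l2, which encodes NRF2, was at 169 and 88.5 CPM in USg, 170.1 and 94.8 in DSg and 157 and 166 in Spc (0.04 ± 0.41, adjusted p = 0.967). Keap1, whose product holds NRF2 down, was at 27.4 and 41.3 CPM in USg, 45.3 and 55.2 in DSg and 62.7 and 58.6 in Spc (0.54 ± 0.34, adjusted p = 0.423). Of 3 tested methionine sulfoxide reductases, Msrb2 was higher in Spc than in USg (3.38 ± 0.88, adjusted p = 0.0179) and 0 were called in DSg by edgeR, DESeq2 or limma-voom (0 at an unadjusted p below 0.05).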

How the data were processed

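Gene-level values were raw read counts, whole numbers deposited by the authors for 6 RNA libraries under gene symbols. The submitters' processing notes name HOMER, Picard 1.127, Subread 1.4.6 with featureCounts, STAR 2.5.3a, edgeR 3.2.4 and Bowtie2 2.2.3, and the builds rn5 and rn6, without roles. How reads were aligned, which annotation was used and whether counting used strand were not given in the sources used here, so genes that overlap or have near copies may share or lose reads. The 2 Foxa2 immunoprecipitation samples were not analysed here.

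One model covered the 6 libraries (3 residual degrees of freedom). Low rows were dropped with filterByExpr (minimum count 10, minimum total 15), libraries were scaled by TMM, and contrasts were tested by edgeR's quasi-likelihood method (edgeR 4.0.16, R 4.3.3), two-sided, with Benjamini-Hochberg adjustment over 12210 genes and a threshold of 0.05. Each SE was obtained by dividing the size of the log2 fold change by the root of its F value. For Mgst2 and Sod3, at 8 counts or fewer in a pair, a ratio with an exact binomial 95% interval is given. Among other tested members, Gsta1, Gstm6l, Gstt2 and Txndc15 also had 8 counts or fewer in a pair, and no such ratio is given for them. The script was tested on simulated data.

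The members and lists were chosen with earlier results of these data known. Values are given for the markers Gpx2, Gstp1, Gstt3 and Mgst2, all members called in DSg vs USg, up to 3 higher and 3 lower per family in each comparison with Spc (at least 5 CPM), the member with most reads per family and 8 fixed genes. Other genes given with values were chosen after their values were seen. The alternatives were DESeq2 1.42.0 and limma-voom (limma 3.58.1) as tools, scaling by RLE, total count or upper quartile, a 5 CPM filter or none, a replicate block, models of the 4 libraries compared, omission of each library in turn and omission of ribosomal RNA genes. Leaving out USg 1 and DSg 1 together was added after the data were seen. Lists of partner genes and cell type markers are described by counts and sums. One result of a partner list is not reported here.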

Additional observations from a re-analysis of the deposited data

How the results depend on the processing

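No direction of a named member's called change turned under any alternative, and RLE scaling and leaving out ribosomal RNA genes ended no call. The members called between DSg and USg numbered 5, and 3 with total-count scaling, 9 with no filter, 9 with DESeq2, 1 with limma-voom, 2 in a fit of the 4 libraries and 0 to 12 when a library was left out (16 had an unadjusted p below 0.05 by edgeR). Over all genes the count of 303 became 199 with total-count scaling, 1044 with no filter, 769 with DESeq2, 90 in the fit of 4 libraries, and 0 to 1501 with a library left out. Without USg 1 and DSg 1 together 32, 49 and 48 members and 6327, 8246 and 8292 genes were called for DSg vs USg, Spc vs USg and Spc vs DSg, since the spread then comes from the Spc pair alone. Members called with a library left out numbered 22 to 34 for Spc vs USg (31 with all) and 19 to 30 for Spc vs DSg (27), and all genes 2258 to 4411 (4214) and 1642 to 4289 (3239). With limma-voom 287 genes were called for DSg vs USg, close to the 303 of the main fit, although members went from 5 to 1. The drop among members with this tool therefore did not come with a like drop over all genes. For Spc vs DSg the split of 1806 higher and 1433 lower genes turned to 1486 and 1925 with upper quartile and 1407 and 1681 with total-count scaling. The replicate numbers are not known to pair libraries: differences between replicates 1 and 2 correlated across genes at 0.25 for USg and DSg, -0.27 for USg and Spc and 0.01 for DSg and Spc. With a replicate block 7, 34 and 30 members and 604 genes (DSg vs USg) were called. Under it Sod1 passed for Spc vs USg (-1.76, adjusted p = 0.0113). Without a library of USg or DSg, called fold changes also moved by over 1.5-fold for Gpx2, Gsta1, Gsta4, Gstm1, Gstp1, Gstt3, Mgst3, Sod3, Srxn1, Glrx, Gpx8 and Gsto1 (Spc vs USg) and for Cbr1, Gpx1, Mgst1, Mgst2, Prdx3, Gsta1, Gsta4, Gstm2, Gstp1, Gstt2, Sod3 and Txndc15 (Spc vs DSg). Depth limits the rows at a few counts, where 3 counts are 0.534 to 1.21 CPM.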
